A study of Homo sapiens with 15 samples.

Results

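The genes described are the 45 genes of the DNA replication machinery that were listed by symbol for their roles. The rule uses no measured value, but the list was drawn up with earlier results of these tumors known. They were found through the RefSeq accession of each probe on 15 single-color Agilent whole-genome expression arrays, where they have 58 probes among the 34127 that are not controls. All 58 probes passed the filter on dim signals, as did 30585 probes in all, which stand for 18016 genes. Tumors of HCT116 cells, a human colon carcinoma cell line, were grown in athymic nude mice, with 3 tumors for each of 5 constructs and 1 tumor per array. The constructs were the empty pCDNA3 vector, wild type MOAP-1 (a pro-apoptotic protein that binds Bax), MOAP-1 with the K264R change, MOAP-1 with the K278R change, and HA-tagged RASSF1A (a tumor suppressor protein and a partner of MOAP-1). K264R and K278R each replace a lysine with arginine. All HCT116 cells kept their own MOAP-1. The constructs were introduced by transient transfection before the cells were injected, so the tumors come from transfected pools and not from clones. The labels do not say whether the 3 tumors of a construct came from separate transfections, and the p values then measure the spread between these tumors. The question of the design is how each construct changes expression relative to the vector tumors, and whether either lysine change alters the effect of MOAP-1.

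Chromosomal replication starts with licensing, in which the origin recognition complex, CDC6 and CDT1 load the MCM helicase ring onto DNA. Firing then joins CDC45 and the GINS complex to the ring under the CDC7-DBF4 kinase and MCM10, and the polymerase alpha-primase complex lays primers on strands that RPA coats. RFC loads the PCNA clamp for polymerases delta and epsilon, FEN1 and LIG1 finish the lagging strand fragments, and ribonucleotide reductase and thymidylate synthase supply nucleotides. Many of these genes are transcribed in late G1 and S phase under E2F factors, and they are markers of proliferating tumor cells.

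The level of a probe is given as the log2 processed signal minus the 75th percentile of its array, so that a level of 0 equals that percentile and a change of 1 is a doubling. Levels are compared between tumors and never between probes. A gene counts as called where at least 1 probe of it reached a limma adjusted p below 0.05, whatever the size of the change. Over the 15 arrays this percentile lay at signals of 495.8 to 1400, 85.1% to 93.1% of spots were well above background, and no spot was saturated. The MOAP1 probe read 0.34, 0.72, and 0.71 in MOAP-1 tumors against −0.17, −0.53, and −0.13 in vector tumors, and it was called higher with MOAP-1, K264R, and K278R. The RASSF1 probe read 1.56, 1.55, and 1.59 in the tumors labeled RASSF1A against 1.72, 1.52, and 1.81 in vector tumors, so it did not separate them, and whether this probe reads the construct is not given in the sources used here. Of the 8 colon epithelial markers, 7 were well above background in every tumor. In bulk tumors, fewer cells of a type and less RNA per cell cannot be told apart. The 3 vector tumors and RASSF1A tumor 3 shared 1 slide and the K264R tumors had a slide of their own, MOAP-1 tumor 2 and the K278R tumors shared another, MOAP-1 tumors 1 and 3 another, and RASSF1A tumors 1 and 2 another that was scanned on a later day. Slide and construct cannot be told apart for the MOAP-1, K264R, or K278R tumors against the vector tumors. The same holds for K264R against MOAP-1 or K278R tumors, and for MOAP-1 against RASSF1A tumors, which shared no slide.

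Promoter windows (RefSeq, GRCh38.p14, 250 bases before to 50 after the annotated start) were given for 39 of the 45 genes. The letters TTTCCCGC, TTTCGCGC, TTTGCCGC, or TTTGGCGC, which are forms of the E2F site, were searched on both strands. They occurred in 19 of the 39 genes (48.7%) and in 3.99% of 27305 genes with a window. CCAAT, searched on both strands, occurred in 22 of the 39 genes (56.4%) and in 39.7% of all genes. The stretches below are shown because genes with the E2F letters were found both among those that rose with MOAP-1 (the first 5) and among those that did not (the last 4). They are written on the strand of the gene, with the E2F letters in capitals and 25 bases on each side; in MCM6, letters on both strands overlap.
PCNA (chr20:5126649-5126706, minus strand): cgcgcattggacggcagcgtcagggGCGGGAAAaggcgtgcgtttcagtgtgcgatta
LIG1 (chr19:48170426-48170483, minus strand): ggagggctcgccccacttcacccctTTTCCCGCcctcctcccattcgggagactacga
POLA2 (chr11:65261884-65261941, plus strand): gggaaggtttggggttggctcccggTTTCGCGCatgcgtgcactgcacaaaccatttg
MCM6 (chr2:135876501-135876558, minus strand): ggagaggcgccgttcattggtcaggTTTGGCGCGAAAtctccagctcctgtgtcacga
RFC3 (chr13:33818069-33818126, plus strand): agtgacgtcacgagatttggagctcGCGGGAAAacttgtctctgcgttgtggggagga
CDT1 (chr16:88803729-88803786, plus strand): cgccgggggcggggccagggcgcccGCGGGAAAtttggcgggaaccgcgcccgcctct
TYMS (chr18:657589-657646, plus strand): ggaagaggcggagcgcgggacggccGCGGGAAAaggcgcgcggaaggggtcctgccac
CDC7 (chr1:91501053-91501110, plus strand): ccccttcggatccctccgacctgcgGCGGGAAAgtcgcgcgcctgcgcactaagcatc
MCM3 (chr6:52284884-52284941, minus strand): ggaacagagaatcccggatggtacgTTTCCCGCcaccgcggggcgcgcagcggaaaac
Among the genes with a window, the E2F letters were present in 9 of the 20 called higher with MOAP-1 (45.0%) and in 10 of the other 19 (52.6%). CCAAT was present in 10 of the 20 and 12 of the 19. RRM2, the gene with the largest rise, had CCAAT and none of the E2F letters in its window. A match is a description of the letters and not a measured binding site.

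In MOAP-1 tumors, 26 of the 45 genes differed from vector tumors, 23 higher and 3 lower. Over the whole array, 35.8% of genes were called in this comparison, 21.0% with a probe higher and 16.0% with a probe lower. Among the replication genes, 23 of 45 were called higher, and the median change of their 58 probes was 0.23 on the log2 scale against 0.02 for all 30585 probes. RRM2, PCNA, FEN1, POLD2, and GINS2 rose, RPA3 fell, and CDC6, CDT1, CDC45, MCM3, and TYMS were not called. With the brightest probe of each gene alone, 18 genes were higher and 1 was lower, against 29.8% of all genes called in either direction. The changes were mostly small, and 12 of the genes called higher and 2 of those called lower passed 1.5-fold, against 13.2% and 6.89% of all genes. In 30 of the 58 probes all 3 MOAP-1 tumors lay above all 3 vector tumors, and in 9 they lay below, against 25.0% and 23.6% of all probes.

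**Figure D1:**
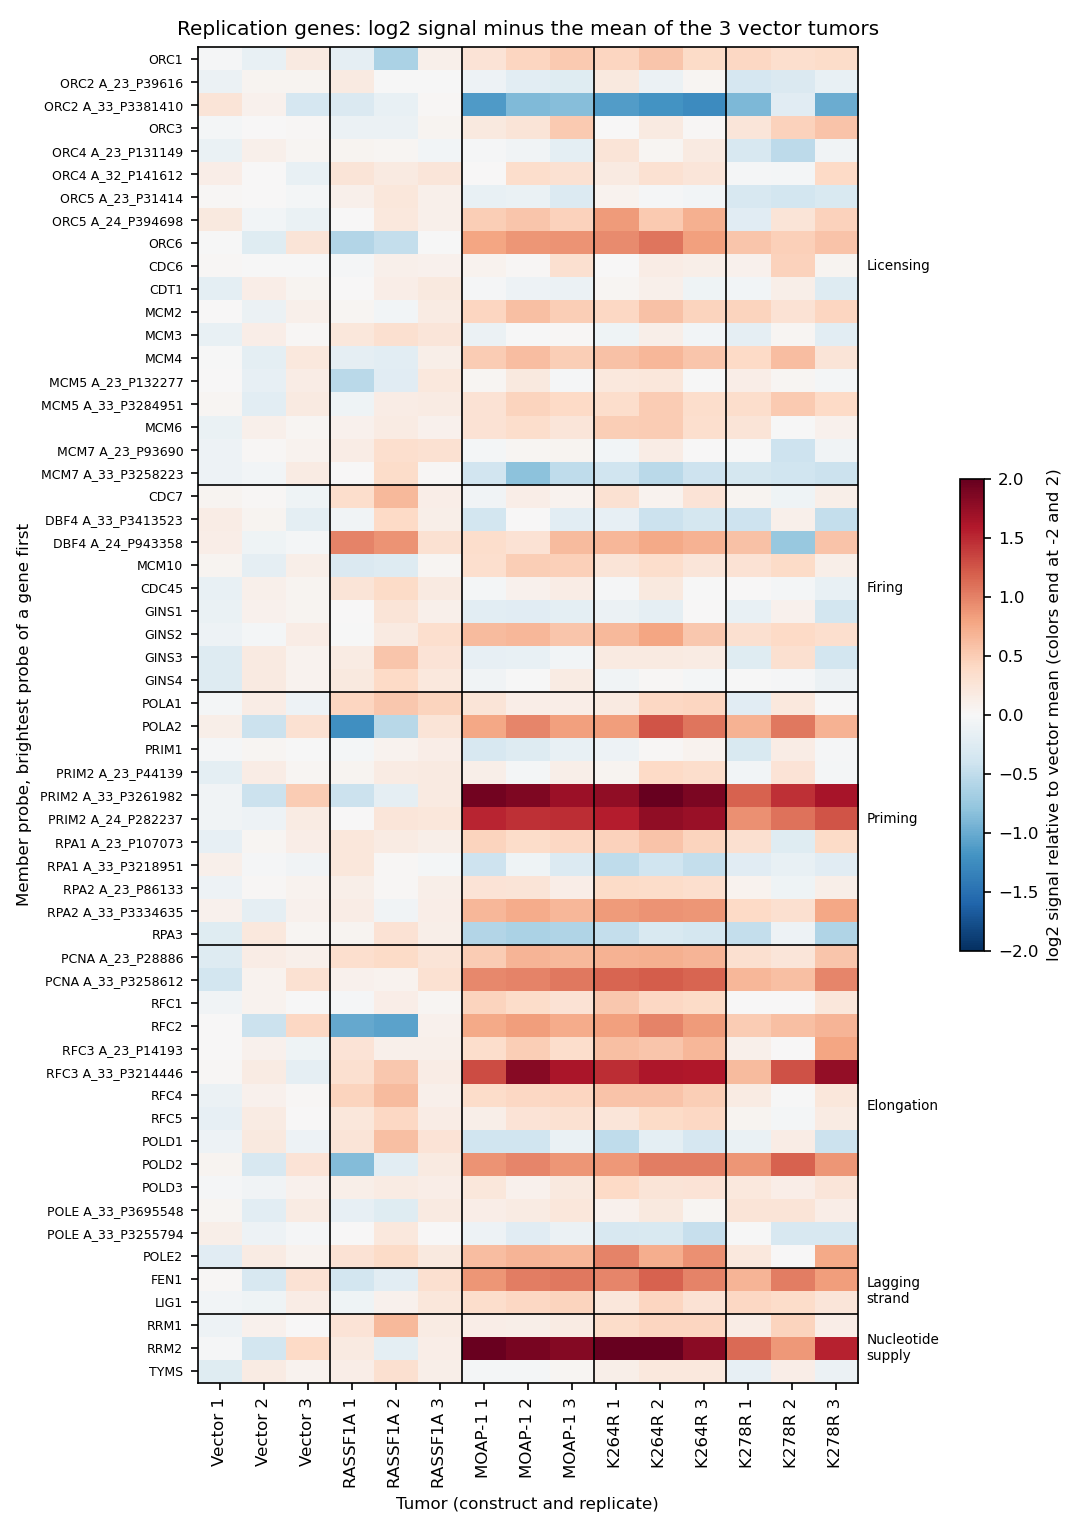
Log2 signal of the 58 probes (rows, grouped by role, with the probe name where a gene has several) in the 15 tumors (columns), each relative to the mean of the 3 vector tumors of that probe. Red is higher and blue is lower, and colors end at −2 and 2; RRM2 and dim probes of PRIM2 and RFC3 are the darkest rows in the 9 tumors with a MOAP-1 form.

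The 3 nucleotide supply genes did not move alike. RRM2 encodes the small subunit of ribonucleotide reductase, the subunit that holds the radical needed to make deoxyribonucleotides. Its level was 0.14, −0.20, and 0.57 in vector tumors, 2.15, 2.07, and 2.01 in MOAP-1 tumors, 2.21, 2.22, and 1.98 in K264R tumors, 1.30, 1.03, and 1.71 in K278R tumors, and 0.34, −0.03, and 0.30 in RASSF1A tumors. All 9 tumors with a MOAP-1 form were above all 6 others, and the vector and RASSF1A tumors overlapped. The change against vector was 1.91 ± 0.20 (SE, 3.75-fold, limma adjusted p = 0.000158) with MOAP-1, 1.97 ± 0.20 (adjusted p = 7.01e-05) with K264R, 1.18 ± 0.20 (adjusted p = 0.00298) with K278R, and 0.03 ± 0.20 (adjusted p = 0.963) with RASSF1A. RRM1 encodes the large, catalytic subunit of the same enzyme. RRM1 read 1.47, 1.67, and 1.59 in vector tumors, 1.71, 1.69, and 1.75 in MOAP-1 tumors, 1.95, 2.0, and 2.01 in K264R tumors, 1.72, 2.02, and 1.71 in K278R tumors, and 1.85, 2.23, and 1.74 in RASSF1A tumors. Each of these constructs lay above the vector tumors in all 3 tumors, but only the K264R change of 0.41 ± 0.12 was called (adjusted p = 0.0217). TYMS encodes thymidylate synthase, which makes dTMP. TYMS read 3.33, 3.73, and 3.63 in vector tumors, 3.53, 3.53, and 3.61 with MOAP-1, 3.68, 3.78, and 3.77 with K264R, 3.41, 3.69, and 3.46 with K278R, and 3.69, 3.88, and 3.68 with RASSF1A. The MOAP-1 tumors fell within the range of the vector tumors, and TYMS was called in no comparison.

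Of the 14 licensing genes, 7 were called higher and 2 lower with MOAP-1, against 21.0% and 16.0% of all genes. ORC6, the smallest subunit of the origin recognition complex, read −1.07, −1.30, and −0.80 in vector tumors, −0.27, −0.18, and −0.15 in MOAP-1 tumors, −0.11, 0.02, and −0.24 in K264R tumors, −0.51, −0.58, and −0.49 in K278R tumors, and −1.64, −1.53, and −1.06 in RASSF1A tumors. The 9 tumors with a MOAP-1 form were all above the other 6, and the RASSF1A tumors overlapped the lower vector tumors. The rise was 0.85 ± 0.15 with MOAP-1 (adjusted p = 0.00131), 0.94 ± 0.15 with K264R (adjusted p = 0.000514), and 0.53 ± 0.15 with K278R (adjusted p = 0.0269). MCM2, MCM4, and MCM6, which are subunits of the helicase ring, also rose with MOAP-1. MCM2 read 0.86, 0.75, and 0.97 in vector tumors and 1.29, 1.47, and 1.35 in MOAP-1 tumors, with 1.27, 1.45, and 1.30 in K264R tumors, 1.30, 1.15, and 1.30 in K278R tumors, and 0.90, 0.81, and 1.02 in RASSF1A tumors. MCM4 read −0.78, −0.96, and −0.56 in vector tumors and −0.25, −0.15, and −0.28 in MOAP-1 tumors, with −0.18, −0.11, and −0.21 in K264R tumors, −0.37, −0.15, and −0.51 in K278R tumors, and −0.95, −0.98, and −0.66 in RASSF1A tumors. For MCM2 and MCM4 the 9 tumors with a MOAP-1 form were above the other 6. The MOAP-1 change was 0.51 ± 0.10 for MCM2 (adjusted p = 0.00208), 0.54 ± 0.13 for MCM4 (adjusted p = 0.0068), and 0.29 ± 0.10 for MCM6 (adjusted p = 0.0352). The same ring also holds MCM3, with a MOAP-1 change of −0.04 ± 0.10, and MCM5 and MCM7, whose brightest probes changed by 0.06 ± 0.16 and 0.02 ± 0.11. ORC3 was called higher at 0.32 ± 0.11, while CDC6 (0.13 ± 0.12), CDT1 (−0.08 ± 0.12), ORC4, and ORC1 (0.41 ± 0.15, adjusted p = 0.0603) were not called.

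Of the 8 firing genes, GINS2 and MCM10 were called higher with MOAP-1 and none lower, against 21.0% and 16.0% of all genes. GINS2, a subunit of the GINS complex, read 0.87, 0.93, and 1.12 in vector tumors, 1.61, 1.63, and 1.53 in MOAP-1 tumors, 1.62, 1.76, and 1.51 in K264R tumors, 1.29, 1.36, and 1.31 in K278R tumors, and 0.97, 1.15, and 1.30 in RASSF1A tumors. The tumors of the 3 MOAP-1 forms were above the vector tumors, and RASSF1A tumor 3 reached the lowest K278R tumor. The changes were 0.62 ± 0.10 (adjusted p = 0.00102), 0.66 ± 0.10 (adjusted p = 0.000497), and 0.35 ± 0.10 (adjusted p = 0.0322) with MOAP-1, K264R, and K278R. The other GINS subunits did not follow it with MOAP-1, with changes of −0.21 ± 0.12 for GINS1, −0.12 ± 0.17 for GINS3, and 0.03 ± 0.12 for GINS4, and none of these was called against vector with any construct. MCM10, which assists helicase activation, read −3.19, −3.41, and −3.11 in vector tumors, −2.90, −2.74, and −2.75 in MOAP-1 tumors, −2.98, −2.88, and −3.0 in K264R tumors, −2.94, −2.85, and −3.12 in K278R tumors, and −3.53, −3.50, and −3.20 in RASSF1A tumors. Its MOAP-1 change was 0.44 ± 0.12 (adjusted p = 0.0129), and the K264R and K278R changes of 0.28 and 0.27 were not called. With normexp without the outlying spots the MOAP-1 change of MCM10 was 0.10 and not called.

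CDC45, the helicase cofactor, and CDC7, the kinase that triggers firing, were named by the rule on the spread over the 5 constructs, and neither was called against vector. CDC45 read 0.80, 1.06, and 1.00 in vector tumors, 0.91, 1.04, and 1.1 with MOAP-1, 0.93, 1.14, and 0.94 with K264R, 0.96, 0.91, and 0.81 with K278R, and 1.20, 1.34, and 1.12 with RASSF1A. CDC7 read −1.07, −1.09, and −1.21 in vector tumors, −1.20, −0.99, and −1.06 with MOAP-1, −0.83, −1.06, and −0.84 with K264R, −1.07, −1.20, and −1.01 with K278R, and −0.77, −0.48, and −0.99 with RASSF1A. At both genes the RASSF1A tumors were above the vector tumors, by 0.27 ± 0.10 for CDC45 (adjusted p = 0.36) and 0.38 ± 0.13 for CDC7 (adjusted p = 0.348). DBF4, the partner of CDC7, was not called at either of its probes.

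Of the 7 priming genes, 4 were called higher and 1 lower with MOAP-1, against 21.0% and 16.0% of all genes. POLA2, the second subunit of polymerase alpha, read −3.96, −4.51, and −3.78 in vector tumors, −3.31, −3.10, and −3.27 in MOAP-1 tumors, −3.25, −2.83, and −3.01 in K264R tumors, −3.39, −3.03, and −3.39 in K278R tumors, and −5.31, −4.63, and −3.83 in RASSF1A tumors. All 9 tumors with a MOAP-1 form were above the other 6, and the RASSF1A tumors spread widely. The change was 0.86 ± 0.29 with MOAP-1 (adjusted p = 0.04), 1.06 ± 0.29 with K264R (adjusted p = 0.0133), and 0.81 ± 0.29 with K278R (adjusted p = 0.0632). The MOAP-1 call of POLA2 was lost with quantile normalization (0.70, adjusted p = 0.0765), and both calls were lost with the normexp background model, at −0.85 for MOAP-1 with all spots and at 0.12 for MOAP-1 and 0.11 for K264R without the spots of outlying local background. POLA1, the catalytic subunit of the same polymerase, read −1.38, −1.20, and −1.44 in vector tumors, −1.08, −1.21, and −1.21 with MOAP-1, −1.16, −0.93, and −0.91 with K264R, −1.57, −1.13, and −1.34 with K278R, and −0.91, −0.80, and −0.90 with RASSF1A. It was called with K264R alone among the comparisons with vector (0.34 ± 0.12, adjusted p = 0.0399), and its RASSF1A change of 0.47 ± 0.12 had an adjusted p of 0.342. PRIM1, the catalytic primase subunit, was not called.

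RPA is a trimer that coats single-stranded DNA, and its subunits moved in opposite directions. RPA3, the smallest subunit, read 2.62, 3.06, and 2.89 in vector tumors, 2.27, 2.22, and 2.25 in MOAP-1 tumors, 2.38, 2.55, and 2.50 in K264R tumors, 2.39, 2.76, and 2.26 in K278R tumors, and 2.91, 3.14, and 2.97 in RASSF1A tumors. The MOAP-1 and K264R tumors were below every vector tumor, and 1 K278R tumor was not. RPA3 fell by 0.61 on the log2 scale with MOAP-1 (SE 0.14, adjusted p = 0.00534) and by 0.38 with K264R (adjusted p = 0.0468), and the K278R change was −0.39 ± 0.14 (adjusted p = 0.0601). The K264R call of RPA3 was lost with quantile normalization (−0.22, adjusted p = 0.175), in the authors' table (adjusted p = 0.0813), with the scan day as a block (adjusted p = 0.0535), and in a fit of only the arrays compared (adjusted p = 0.0612). RPA2 read −0.31, −0.58, and −0.32 in vector tumors and 0.26, 0.34, and 0.26 in MOAP-1 tumors at its dimmer probe, and 1.45, 1.59, and 1.63 against 1.84, 1.81, and 1.70 at its brighter probe. The dimmer probe read 0.45, 0.49, and 0.49 with K264R, −0.01, −0.09, and 0.37 with K278R, and −0.25, −0.48, and −0.28 with RASSF1A, and the brighter probe read 1.94, 1.92, and 1.90, then 1.62, 1.47, and 1.68, then 1.68, 1.58, and 1.68. The MOAP-1 tumors lay above the vector tumors at both probes, by 0.69 ± 0.12 (adjusted p = 0.00129) at the dimmer and 0.22 ± 0.09 (adjusted p = 0.0653) at the brighter.

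The 11 elongation genes had 7 members higher and none lower with MOAP-1, against 21.0% and 16.0% of all genes. PCNA, the sliding clamp, was among the genes that the study listed from these same tumors, so its direction is not independent evidence. Its brighter probe read 2.14, 2.54, and 2.50 in vector tumors, 2.89, 3.07, and 3.05 in MOAP-1 tumors, 3.08, 3.10, and 3.08 in K264R tumors, 2.71, 2.63, and 2.95 in K278R tumors, and 2.73, 2.77, and 2.64 in RASSF1A tumors. Its dimmer probe read 0.80, 1.22, and 1.46 in vector tumors, 2.12, 2.15, and 2.22 with MOAP-1, 2.33, 2.37, and 2.33 with K264R, 1.82, 1.76, and 2.13 with K278R, and 1.24, 1.23, and 1.47 with RASSF1A. The vector tumors lay below all 3 MOAP-1 forms at both probes, and the RASSF1A tumors joined the vector tumors at the dimmer probe and the K278R tumors at the brighter. The MOAP-1 change was 0.61 ± 0.12 (adjusted p = 0.00214) at the brighter probe and 1.00 ± 0.15 (adjusted p = 0.000486) at the dimmer, and both probes were also called with K264R (0.69 and 1.18) and K278R (0.37 and 0.75).

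POLD2, the accessory subunit of polymerase delta, read −1.73, −2.11, and −1.52 in vector tumors, −0.89, −0.81, and −0.91 in MOAP-1 tumors, −0.91, −0.77, and −0.77 in K264R tumors, −0.90, −0.61, and −0.90 in K278R tumors, and −2.65, −2.0, and −1.60 in RASSF1A tumors. The 9 tumors with a MOAP-1 form were above the other 6, and the change was 0.92 ± 0.21 (adjusted p = 0.0066), 0.97 ± 0.21 (adjusted p = 0.00392), and 0.98 ± 0.21 (adjusted p = 0.0087) with MOAP-1, K264R, and K278R. The catalytic subunit POLD1 had a MOAP-1 change of −0.31 ± 0.16 (adjusted p = 0.151), and POLD3 of 0.17 ± 0.08. In polymerase epsilon, the accessory subunit POLE2 rose by 0.65 ± 0.16 (adjusted p = 0.00977), and the 2 probes of the catalytic subunit POLE changed by 0.18 ± 0.12 and −0.15 ± 0.11 and were not called. RFC2, a subunit of the clamp loader, read −0.90, −1.34, and −0.50 in vector tumors, −0.16, −0.07, and −0.18 with MOAP-1, −0.09, 0.08, and −0.06 with K264R, −0.40, −0.32, and −0.23 with K278R, and −1.94, −1.98, and −0.83 with RASSF1A. RASSF1A tumors 1 and 2 were the lowest and the 9 tumors with a MOAP-1 form the highest. RFC2 rose by 0.78 ± 0.26 with MOAP-1 (adjusted p = 0.0383) and by 0.89 ± 0.26 with K264R (adjusted p = 0.018). RFC1, the large subunit of the clamp loader, read −0.35, −0.21, and −0.29 in vector tumors, 0.17, 0.08, and 0.00 with MOAP-1, 0.25, 0.13, and 0.10 with K264R, −0.27, −0.27, and −0.06 with K278R, and −0.31, −0.14, and −0.24 with RASSF1A. It rose by 0.36 ± 0.09 with MOAP-1 (adjusted p = 0.0107) and 0.44 ± 0.09 with K264R (adjusted p = 0.00285), and its K278R change of 0.08 ± 0.09 was not called. RFC4 rose by 0.40 ± 0.12 with MOAP-1, and RFC5 was called with K264R (0.35 ± 0.11).

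Both lagging strand genes were called higher with every MOAP-1 form, against 21.0%, 21.1%, and 16.0% of all genes with MOAP-1, K264R, and K278R. FEN1, the nuclease that trims flaps between Okazaki fragments, read −1.61, −1.96, and −1.34 in vector tumors, −0.76, −0.62, and −0.58 in MOAP-1 tumors, −0.66, −0.46, and −0.65 in K264R tumors, −0.96, −0.61, and −0.80 in K278R tumors, and −2.0, −1.86, and −1.32 in RASSF1A tumors. LIG1, the ligase that seals the fragments, read 0.69, 0.65, and 0.89 in vector tumors, 1.1, 1.16, and 1.20 with MOAP-1, 0.97, 1.18, and 1.04 with K264R, 1.16, 1.11, and 0.98 with K278R, and 0.66, 0.84, and 0.97 with RASSF1A. For FEN1 the 9 tumors with a MOAP-1 form stood clear of the other 6, and for LIG1 they did so narrowly. FEN1 rose by 0.99 ± 0.18 (adjusted p = 0.00166), 1.05 ± 0.18 (adjusted p = 0.000829), and 0.85 ± 0.18 (adjusted p = 0.00792) with MOAP-1, K264R, and K278R, and LIG1 by 0.41 ± 0.10 (adjusted p = 0.011), 0.32 ± 0.10 (adjusted p = 0.0321), and 0.34 ± 0.10 (adjusted p = 0.0384).

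**Figure D2:**
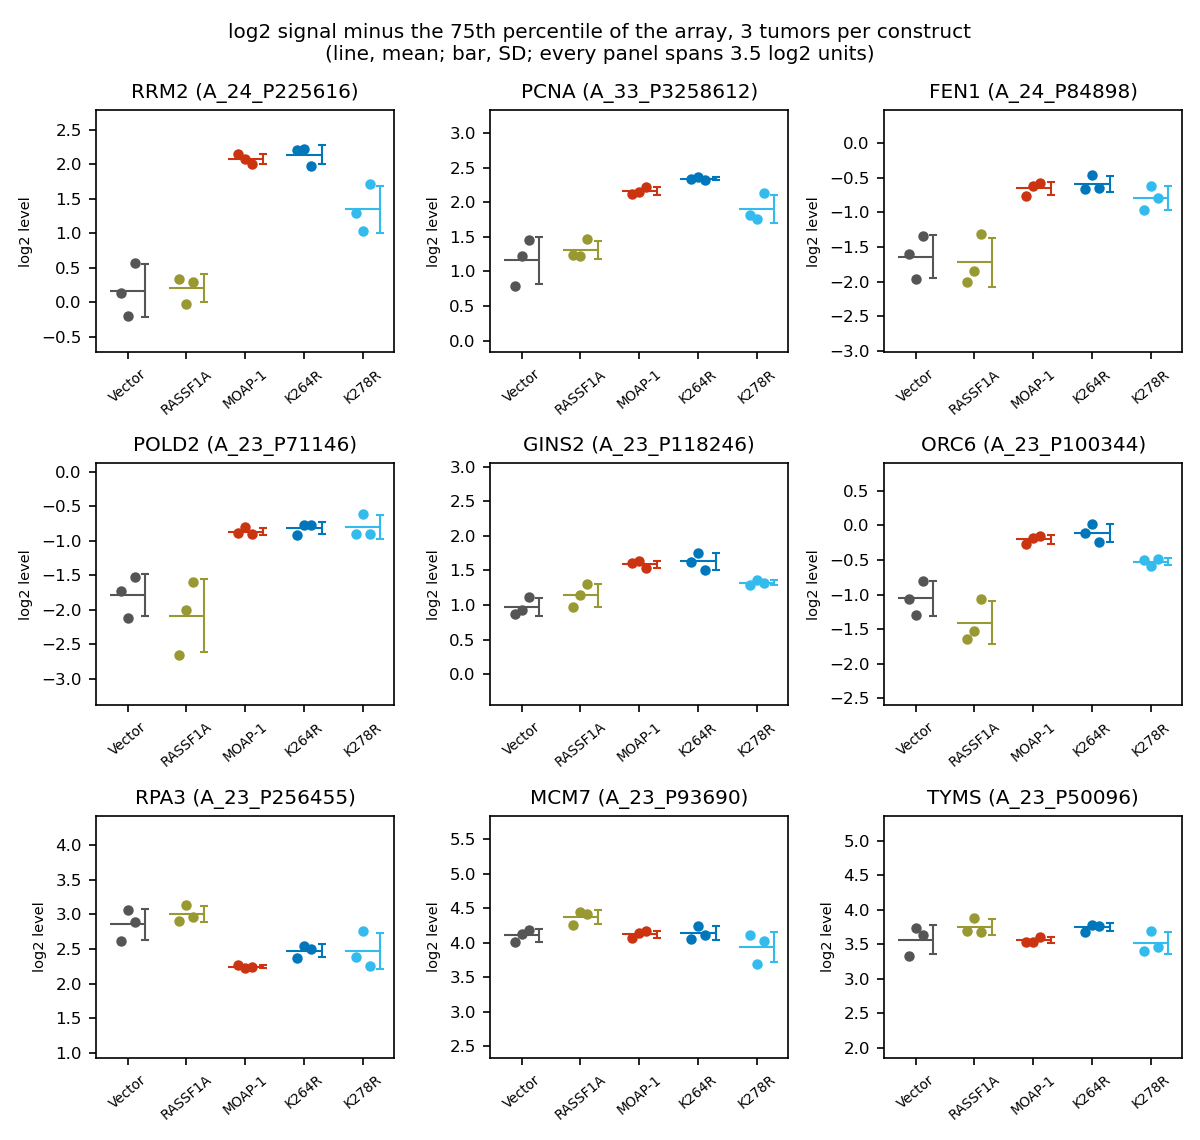
Log2 level (signal minus the 75th percentile of the array) of 9 probes in the 3 tumors of each construct, with points for tumors, a line for the mean, and a bar for the SD; every panel spans the same number of log2 units. RRM2, PCNA (dimmer probe), FEN1, POLD2, GINS2, and ORC6 were higher in the MOAP-1 forms than in vector tumors, RPA3 was lower in MOAP-1 and K264R tumors, and the MCM7 brighter probe and TYMS overlapped.

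K264R tumors had 30 of the 45 genes called against vector, 26 higher and 5 lower, with RPA1 counted in both directions. The shares over the array were 40.7% of genes called, 21.1% with a probe higher and 21.0% with a probe lower. The median change of the 58 probes was 0.33 against −0.05 for all probes. Genes called higher with K264R and not with MOAP-1 were ORC1, POLA1, POLD3, RFC5, and RRM1, and those called higher with MOAP-1 and not with K264R were ORC3 and MCM10. K278R tumors had 17 genes called, 14 higher and 3 lower, against 24.5% of all genes, 16.0% higher and 9.06% lower. Their median change was 0.13 against 0.06 for all probes. The genes called higher with K278R were FEN1, GINS2, LIG1, MCM2, MCM4, MCM5, ORC3, ORC6, PCNA, POLD2, PRIM2, RFC3, RPA2, and RRM2. The 3 comparisons share the vector tumors. Without vector tumor 2, the K278R count was 7, with 9.33% of all genes called. The count was 11 without vector tumor 1, K278R tumor 1, or K278R tumor 3, with 17.5%, 20.3%, and 14.2% of all genes called.

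**Figure D3:**
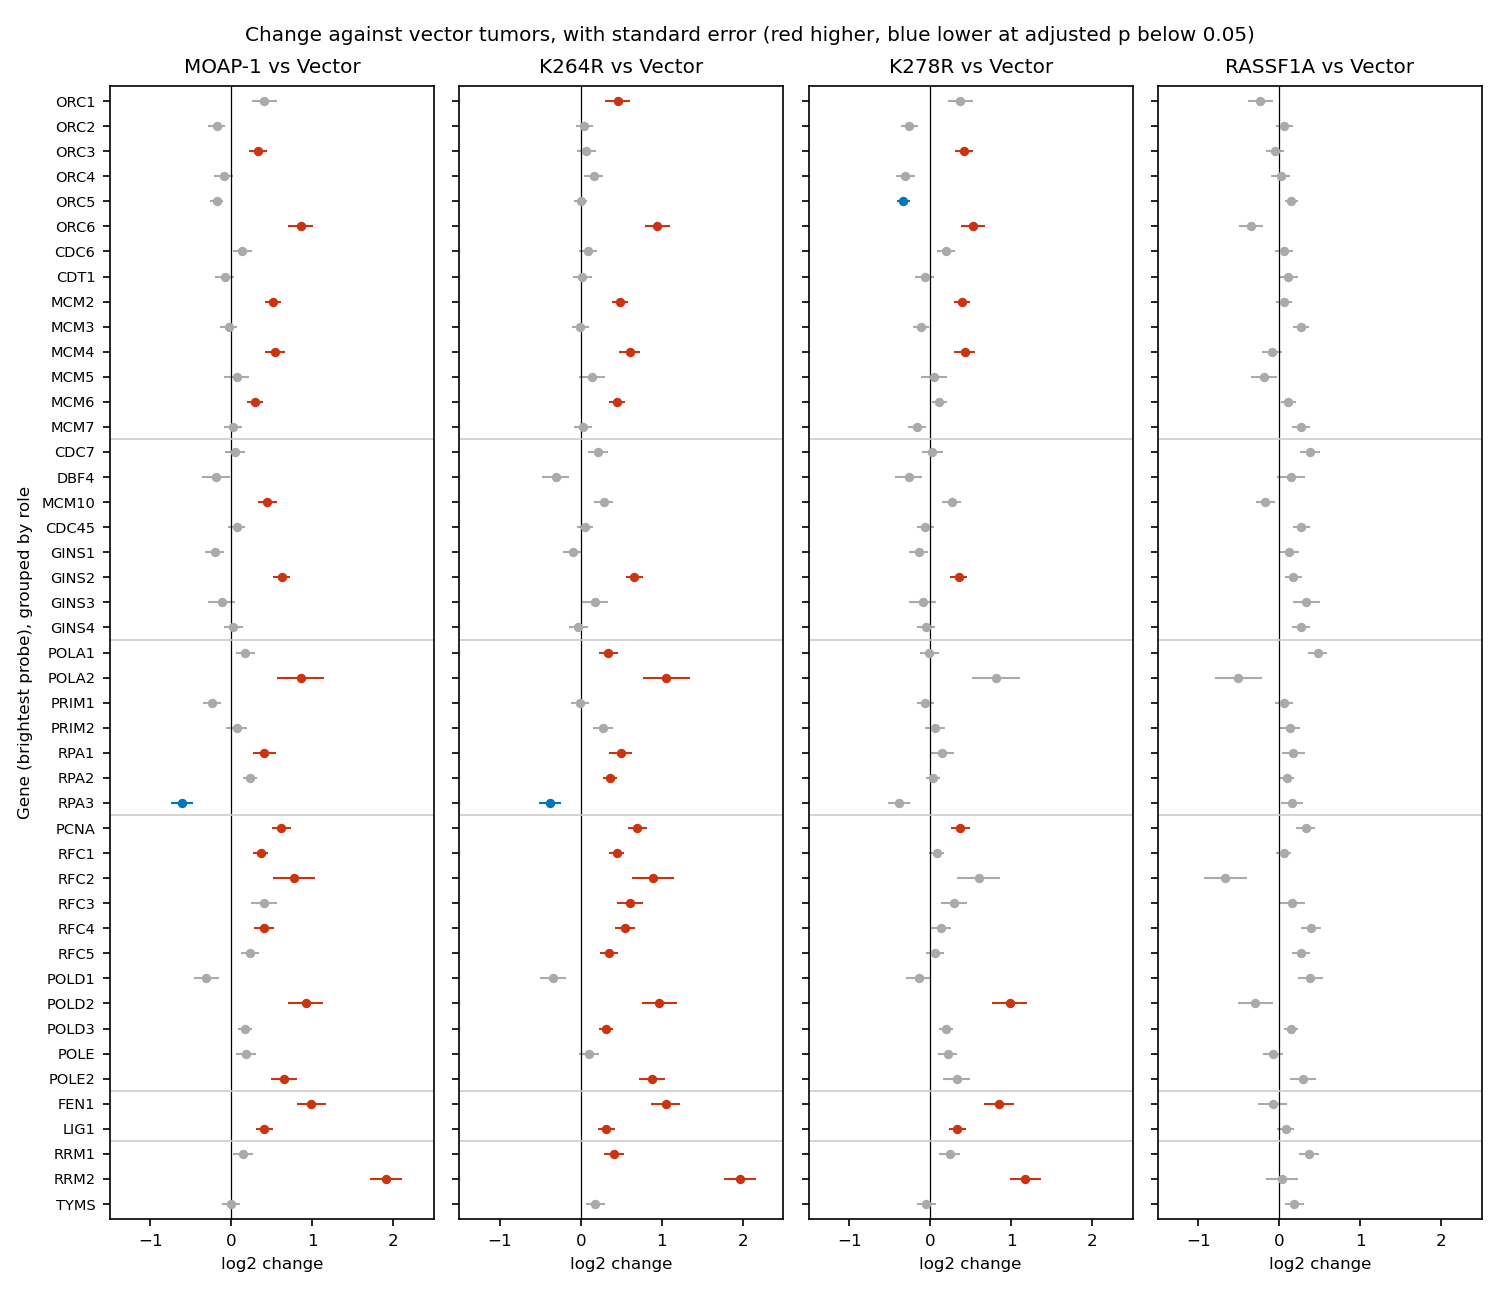
Log2 change against the vector tumors at the brightest probe of each of the 45 genes, grouped by role, for MOAP-1, K264R, K278R, and RASSF1A, with bars for the standard error. Red and blue points were called higher and lower, and 18, 23, 10, and 0 genes are red in the 4 panels. With the brightest probe of each gene alone, 29.8%, 34.8%, 19.1%, and 0% of all genes were called in either direction.

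No replication gene was called between MOAP-1 and K264R or between MOAP-1 and K278R, where 0% of all genes were called. At an unadjusted limma p below 0.05, 5 and 7 of the 58 probes passed (10.7% and 9.22% of all probes), and limma's array weights called 6 genes between MOAP-1 and K264R, where 20.6% of all genes were then called. The changes ran from −0.30 to 0.25 for MOAP-1 minus K264R, and the half-width of the 95% interval at a probe had a median of 0.26 and lay between 0.17 and 0.63. For MOAP-1 minus K278R they ran from −0.25 to 0.73, and the largest was RRM2 at 0.73 ± 0.20 with an interval from 0.31 to 1.15. That interval is not adjusted for the number of probes, and the smallest limma adjusted p of the 58 probes was 0.419. MOAP-1 tumor 2 and the K278R tumors were on the same slide, and within it the median of the 58 probes was 0.16 against 0.11 over all slides. With 1 MOAP-1 tumor there, the spread comes from the K278R tumors alone, so a count of calls within the slide bears on nothing. The tumors of the mutants shared no slide, so slide and construct cannot be told apart between them. K264R tumors were above K278R tumors at 46 of 58 probes, and all 3 lay above all 3 at 21 probes (7.39% of all probes). The median of the 58 probes was 0.20 against −0.13 for all probes. RRM2 was higher in K264R by 0.79 ± 0.20 (adjusted p = 0.0687), RFC1 by 0.36 ± 0.09 (adjusted p = 0.0748), and RPA2 at its brighter probe by 0.33 ± 0.09 (adjusted p = 0.0752). PRIM2 alone was called in this comparison, at a dim probe (0.61 ± 0.11, adjusted p = 0.036), where 0.949% of all genes were called. That count was 9 without K278R tumor 3, with 11.1% of all genes called, and 0 without any other of the 6 tumors.

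RASSF1A tumors had none of the 45 genes called against vector by limma, as was true of all genes (0%). At an unadjusted p below 0.05, 14 probes passed, 12 higher and 2 lower, against 12.1% of all probes, and the methods' t-test after Benjamini-Hochberg adjustment also called 0. The count was 5 without RASSF1A tumor 3, the tumor on the slide of the vector tumors, and 7.52% of all genes were then called. The median change was 0.12 against 0.02 for all probes. MOAP-1 and RASSF1A tumors differed at 28 genes, 19 higher and 9 lower in MOAP-1, against 43.4% of all genes, 25.1% higher and 20.4% lower. With the scan day as a block this count was 7 (14.8% of all genes), with ORC6, PCNA, PRIM2, RFC3, and RRM2 higher and ORC2 and RPA3 lower. RASSF1A tumors 1 and 2 are the only arrays of the later day, so that this value rests on RASSF1A tumor 3 alone. RRM2 was higher with MOAP-1 by 1.87 ± 0.20 (adjusted p = 4.15e-05), RFC2 by 1.44 ± 0.26 (adjusted p = 0.000921), POLD2 by 1.22 ± 0.21 (adjusted p = 0.00078), and ORC6 by 1.20 ± 0.15 (adjusted p = 8.7e-05). Of the genes without a call under that block, POLD1 was lower with MOAP-1 than with RASSF1A by 0.69 on the log2 scale (−0.69 ± 0.16, adjusted p = 0.00399), GINS1 by 0.33 (−0.33 ± 0.12, adjusted p = 0.0417), and MCM3 by 0.30 (−0.30 ± 0.10, adjusted p = 0.0343). At 16 of the 58 probes (27.6%), all 9 tumors with a MOAP-1 form were above all 6 vector and RASSF1A tumors. This held for 9.86% of all probes with a value on every array. At 2 probes (3.45%) they were below, against 8.0%.

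Probes of the same gene did not always move together, and the call of several genes rests on a dimmer probe. Dim and bright rank the probes of the same gene here. The dim probes of MCM7 and MCM5 lay at percentiles 67.2 and 57.0 of all kept probes, and those of PRIM2 at 34.0 and 16.3. Of the 45 genes, 12 had several probes, and the difference in change between the brightest and another probe was called in 39.0% of the 5192 such pairs on the array with MOAP-1. PRIM2, the large primase subunit, and RFC3 were chosen here after their values were seen. The brightest PRIM2 probe read 0.18, 0.51, and 0.41 in vector tumors and 0.48, 0.33, and 0.48 in MOAP-1 tumors. The dim probes read −4.19, −4.54, and −3.61 against −2.17, −2.24, and −2.40, and −5.66, −5.69, and −5.43 against −4.07, −4.14, and −4.11. The MOAP-1 changes were 0.06 ± 0.13 at the brightest probe and 1.84 ± 0.21 and 1.49 ± 0.11 at the dim probes of PRIM2, which differed from the brightest by 1.77 ± 0.23 (adjusted p = 0.000255) and 1.42 ± 0.14 (adjusted p = 9.89e-05). RFC3 rose by 1.59 ± 0.22 at its dim probe and changed by 0.40 ± 0.16 at its bright probe (adjusted p of the difference = 0.000485). With normexp without the outlying spots, the MOAP-1 changes at the dim probes were 0.86 and 0.05 for PRIM2 and 0.77 for RFC3, and the call at the dimmest PRIM2 probe was lost.

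MCM7, a subunit of the helicase ring, had a bright probe at 4.01, 4.12, and 4.18 in vector tumors and 4.07, 4.14, and 4.16 in MOAP-1 tumors, and a dim probe at −0.42, −0.37, and −0.16 against −0.70, −1.14, and −0.83. At the dim probe the K264R tumors read −0.72, −0.85, and −0.73, the K278R tumors −0.67, −0.71, and −0.75, and the RASSF1A tumors −0.31, 0.05, and −0.30, while at the bright probe they read 4.05, 4.25, and 4.11, then 4.10, 3.69, and 4.03, then 4.25, 4.44, and 4.41. The dim probe of MCM7 fell by 0.57 on the log2 scale with MOAP-1 (adjusted p = 0.00537), while the bright probe changed by 0.02 ± 0.11, and the probes differed (adjusted p = 0.0105). ORC5 showed the reverse order of probes. Its bright probe read 0.35, 0.33, and 0.29 in vector tumors, 0.18, 0.19, and 0.05 with MOAP-1, 0.39, 0.30, and 0.27 with K264R, close to 0 in K278R tumor 1, −0.05 and 0.02 in K278R tumors 2 and 3, and 0.43, 0.54, and 0.43 with RASSF1A. Its dim probe read −2.48, −2.72, and −2.81 in vector tumors, −2.18, −2.12, and −2.21 with MOAP-1, −1.81, −2.14, and −1.96 with K264R, −2.89, −2.41, and −2.22 with K278R, and −2.67, −2.47, and −2.56 with RASSF1A. The MOAP-1 changes of ORC5 were −0.18 ± 0.08 (adjusted p = 0.0989) at the bright probe and 0.50 ± 0.15 (adjusted p = 0.027) at the dim probe, a call lost with quantile normalization (0.35) and with normexp without the outlying spots (0.22).

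RPA1, the large subunit of RPA, was called in both directions with K264R. Its bright probe read 2.10, 2.30, and 2.39 in vector tumors, 2.71, 2.62, and 2.68 with MOAP-1, 2.73, 2.83, and 2.71 with K264R, 2.58, 2.02, and 2.64 with K278R, and 2.49, 2.42, and 2.39 with RASSF1A. Its dim probe read −2.73, −2.85, and −2.89 in vector tumors, −3.24, −2.91, and −3.10 with MOAP-1, −3.33, −3.23, and −3.30 with K264R, −3.05, −2.98, and −3.04 with K278R, and −2.60, −2.79, and −2.87 with RASSF1A. The K264R changes were 0.49 ± 0.14 (adjusted p = 0.0154) and −0.46 ± 0.10 (adjusted p = 0.00396). ORC2 was called lower with all 3 MOAP-1 forms at a dim probe (−0.95 ± 0.19 with MOAP-1), and its bright probe changed by −0.18 ± 0.10 and was not called. MCM5 was called higher at its dimmer probe only, in the 3 MOAP-1 forms.

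**Figure D4:**
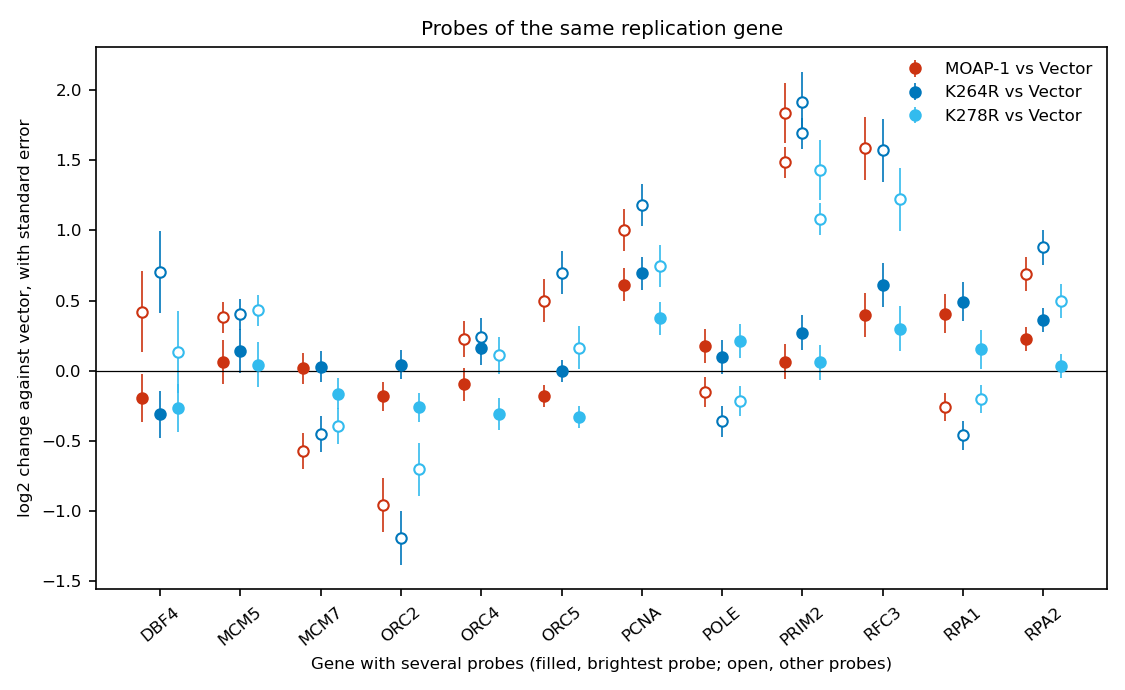
Log2 change against vector, with standard errors, of each probe of the 12 replication genes with several probes; filled points are the brightest probe of the gene and open points its other probes, in 3 colors for MOAP-1, K264R, and K278R. The open points of PRIM2 and RFC3 lie above 1 on the log2 scale while the filled points lie below 0.7, and the open points of MCM7 and ORC2 lie below the filled ones.

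Values that moved with these results were read from the marker genes. Keratins are the epithelial filament genes that HCT116 cells express strongly, and their dimmer probes, chosen here after their values were seen, varied between tumors in the order seen at RFC2 and POLA2. The dimmer KRT18 probe read 2.07, 1.65, and 2.23 in vector tumors, 0.44, 0.48, and 1.91 in RASSF1A tumors, and from 2.31 to 2.70 in the 9 tumors with a MOAP-1 form. The brighter KRT18 probe stayed between 4.86 and 5.63 in all 15 tumors. The dimmer KRT8 probe read −0.37, −0.67, and −0.16 in vector tumors, −1.84, −1.54, and −0.35 in RASSF1A tumors, and 0.24 to 0.80 in the other 9. RASSF1A tumors 1 and 2 were thus lowest and vector tumor 2 the lowest vector tumor at both keratin probes, and the same holds at RFC2 and POLA2. At POLD2, FEN1, and ORC6, RASSF1A tumors 1 and 2 were also below RASSF1A tumor 3, and vector tumor 2 was the lowest vector tumor. Why probes of a keratin differ in this way, and its part in the changes of the replication genes, was not tested. Where these probes lie along the transcripts and how intact the RNA of each tumor was are not given in the sources used here. The summed level of the 8 host fibroblast markers ranged from 2.04 to 7.77 in vector tumors, 5.70 to 43.9 in MOAP-1, 4.65 to 19.5 in K264R, 10.9 to 41.5 in K278R, and 8.07 to 11.4 in RASSF1A tumors. Host cells are of mouse and the probes of human sequence, LUM was at background in all tumors, and 5 to 7 of the 8 fibroblast genes were above background in the vector tumors. The summed level of the 8 epithelial markers was 267 to 308 in vector tumors and 220 to 253 in MOAP-1 tumors. It was 200 to 226 in K264R tumors, 181 to 259 in K278R tumors, and 234 to 264 in RASSF1A tumors. CDH17 was at background in all tumors. In this sum every construct lay below the vector tumors, but the median log2 level of the same list overlapped between them. The median was 2.915, 3.003, and 2.843 in vector tumors, and 2.945, 2.872, and 2.728 with MOAP-1. It was 2.983, 2.823, and 2.902 with K264R, and 2.966, 2.836, and 2.784 with K278R. With RASSF1A it was 3.036, 2.764, and 2.962, and no gene of the list was called. With MOAP-1, EPCAM and LGALS4 were called lower, and KRT8 was called higher at its dimmer probe only. The brighter KRT8 probe read 4.26, 4.35, and 4.15 with MOAP-1 and 4.58, 4.56, and 4.25 in vector tumors. The 6 endothelial markers summed to 2.14 to 2.42 in vector tumors, 2.44 to 2.90 with MOAP-1, 2.31 to 3.75 with K264R, 2.49 to 2.86 with K278R, and 2.50 to 2.83 with RASSF1A, with 5 or 6 of them above background. The 5 leukocyte markers with a probe, all above background, summed to 7.73 to 7.92 in vector tumors, 8.05 to 10.7 with MOAP-1, 7.41 to 8.92 with K264R, 8.64 to 8.91 with K278R, and 7.93 to 12.5 with RASSF1A. The summed levels of the MOAP-1, K278R, and RASSF1A tumors were thus above those of the vector tumors at both lists. Single genes did not all follow. With MOAP-1, CD14 and CSF1R were called lower, and PTPRC was called higher and lower at different probes. The median log2 level of the leukocyte list was −0.06, 0.18, and 0.18 with MOAP-1 and 0.77, 0.46, and 0.34 in vector tumors. Of the endothelial genes only KDR was called with MOAP-1, and it was higher. The 4 erythroid markers summed to 12.8 to 15.3 in vector tumors, 11.0 to 15.1 with MOAP-1, 9.73 to 12.6 with K264R, 12.2 to 13.6 with K278R, and 15.6 to 20.6 with RASSF1A. The part of these markers in the results was not tested.

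Other genes of replication were read from a list of 27 fork and origin factors outside the 45. With MOAP-1, 10 were called higher and 1 lower, against 21.0% and 16.0% of all genes, and their 33 probes had a median change of 0.18. TOP2A, the topoisomerase that separates replicated chromosomes, rose by 1.84 ± 0.26 with MOAP-1 (adjusted p = 0.000409) and 2.11 ± 0.26 with K264R (adjusted p = 0.000139), and by 0.94 ± 0.26 with K278R (adjusted p = 0.025). TICRR, an origin firing factor, rose by 0.95 ± 0.20 with MOAP-1, and CHTF8, part of an alternative clamp loader, by 1.40 ± 0.30. POLD4, the smallest subunit of polymerase delta, fell by 0.32 on the log2 scale with MOAP-1 (adjusted p = 0.0324). Counts were 10 higher and 2 lower with K264R (21.1% and 21.0% of all genes), 6 and 1 with K278R (16.0% and 9.06%), and 0 with RASSF1A (0%). Of 7 further genes of nucleotide supply, none was higher and 1 was lower with MOAP-1, against 21.0% and 16.0% of all genes. That gene was SAMHD1, which breaks down deoxynucleotides, and it fell by 0.80 on the log2 scale at 1 of its 2 probes (adjusted p = 0.000345) and changed by −0.18 ± 0.25 at the other. TK1, thymidine kinase, changed by −0.34 ± 0.14 with MOAP-1 (adjusted p = 0.0775). Of 6 genes of chromatin assembly at forks, CHAF1A was higher and UHRF1 lower with MOAP-1, each at 1 of 2 probes. The same shares of all genes, 21.0% and 16.0%, apply here.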

How the data were processed

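RNA of 15 xenograft tumors was measured on single-color Agilent arrays. For each array the authors deposited Agilent Feature Extraction output (10.5.1.1 per the file headers, 9.1 in the submitters' processing notes), whose processed signals are background-corrected intensities. A GeneSpring table of log2 values that the authors deposited served as an alternative only, by construct. Outlier spots were removed, log2 was taken, each array was shifted to place its 75th percentile over non-control spots at 0, and the spots of a probe were averaged. A probe was kept if 1 construct or more had all of its 3 tumors well above background. This filter left 30585 of 34127 probes, and 112 of them lacked a value on some array. Genes were named through RefSeq (GRCh38.p14), which named 25422 probes (74.5%). Arrays carry no counting depth, and the number of tumors limits the precision.

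The 15 arrays entered 1 limma fit (version 3.58.1, R 4.3.3; lmFit and eBayes, construct only, 10 residual degrees of freedom), with Benjamini-Hochberg adjustment over all kept probes and two-sided p values. The fit was tested on simulated data. MOAP-1 against RASSF1A and K264R against K278R were added later. The 45 genes and the other gene lists were chosen with earlier results of these data known. Values in every tumor are given for up to 4 genes of each role with the smallest p of limma's F test, for PCNA, and for genes with a called probe and another of opposite sign for MOAP-1 against vector, or with probes called in opposite directions in any comparison. Alternatives were quantile normalization, normexp (offset 50), other filters, the authors' table, array weights, slide, scan day, or replicate number as a block, subsets of the arrays, 1 probe per gene, a fold minimum of 1.5, the methods' t-test, and leaving out each tumor.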

Additional observations from a re-analysis of the deposited data

How the results depend on the processing

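The counts moved with the background model. With normexp the number of replication genes called was 3 for MOAP-1, 4 for K264R, and 0 for K278R against vector. It was 11 for MOAP-1 against RASSF1A and 0 for K264R against K278R. In the same order, 2.05%, 3.61%, 0.00555%, 10.1%, and 0% of all genes were then called. The median of all probes shifted to −0.53, −0.31, and −0.46 in the comparisons of MOAP-1, K264R, and K278R with vector. Under it ORC5 (−0.46), MCM5 (−0.083), MCM10 (−0.70), POLA2 (−0.85), PRIM2 (−0.12 and −1.16), and RFC3 (−0.19) changed sign with MOAP-1, ORC1 (−0.32), POLA2 (−0.22), and PRIM2 (−0.37) with K264R, and MCM5 (−0.0097), PRIM2 (−0.37 and −1.19), and RFC3 (−0.38) with K278R; most are dim probes. Vector tumors 2 and 3 and K264R tumor 2 each held 6 spots whose local background was over 5 times the array median. With those spots left out, normexp called 23, 27, and 13 genes against vector for MOAP-1, K264R, and K278R (28.9%, 59.9%, and 11.9% of all genes) and 14 for K264R against K278R (25.7%). The medians of all probes were then −0.16, −0.28, −0.09, and −0.22, and ORC1 (−0.13) and 1 PRIM2 probe (−0.050) changed sign with K264R. Of 82 called changes against vector, 65 kept their call, and those lost include POLA2 (0.12 and 0.11 with MOAP-1 and K264R), PRIM2 at its dimmest probe (0.05 with MOAP-1 and 0.02 with K278R), MCM10 (0.10 with MOAP-1), and POLD3 (0.17 with K264R). Quantile normalization called 23, 28, and 18 genes (34.6%, 39.4%, and 20.4% of all genes), and its K278R calls were 13 higher and 5 lower.

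A fold minimum of 1.5 left 14, 15, and 7 genes for MOAP-1, K264R, and K278R against vector and 17 for MOAP-1 against RASSF1A. The shares of all genes were 19.9%, 23.6%, 13.3%, and 25.7%. The methods' t-test at an unadjusted p and 1.5-fold gave 14, 16, 7, and 17 (19.4%, 23.5%, 12.5%, and 24.5% of all genes). It gave 1 for RASSF1A against vector (0.761%), 1 for MOAP-1 against K278R (0.544%), and 2 for K264R against K278R (3.23%). After Benjamini-Hochberg adjustment this t-test gave 14 for MOAP-1 (19.1%) and 0 for K278R (0%) against vector, and 0 for K264R against K278R (0%). For K278R against vector the count was 3 in a fit of only the arrays compared (4.73% of all genes) and 11 with the brightest probe of each gene (19.1%). K264R against K278R gave 14 with array weights (22% of all genes) and 10 with the slide as a random block (10.3%). The same comparison gave 0 in a fit of only the arrays compared (0%) and 0 with the brightest probes (0.738%). Array weights gave 6 for MOAP-1 against K264R, and the scan day as a block gave 7 for MOAP-1 against RASSF1A, with RASSF1A tumor 3 as the only RASSF1A tumor that bears on it. Beyond the construction of each alternative, the cause was not tested. Leaving out each tumor gave 18 to 24 genes for MOAP-1 against vector, 21 to 27 for K264R, 7 to 17 for K278R, and 0 to 5 for RASSF1A. The shares of all genes were 22.8% to 33.3%, 29.6% to 38.6%, 9.33% to 24.6%, and 0% to 7.52%. It gave 21 to 27 for MOAP-1 against RASSF1A (34.4% to 42.7%) and 0 to 9 for K264R against K278R (0.0278% to 11.1%). MOAP-1 against K264R or K278R gave 0, with at most 0.133% and 1.09% of all genes called.

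Deviations of arrays with the same replicate number correlated at −0.25 to 0.37 over 30 pairs, and 4 of 15 arrays correlated best with their own number. The 10 pairs of number 2 were all positive (0.06 to 0.25), and those of numbers 1 and 3 were not, so the numbers were not taken as pairing the tumors. With the replicate number as a block, 25, 30, and 17 genes were called for MOAP-1, K264R, and K278R against vector (36.0%, 40.1%, and 25.0% of all genes). This block gave 28 for MOAP-1 against RASSF1A (43.5%), 1 for K264R against K278R (0.339%), and 0 in the other comparisons (0%). The slide as a random block, with a consensus correlation of −0.08, gave 26, 31, and 20 against vector (41.1%, 46.9%, and 33.1% of all genes). The counts not given here stayed within 1.5 times the count in the report.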

Other observations

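Cell cycle genes outside replication were read from a list of G2 and mitosis genes, of which 20 were measured. With MOAP-1, 10 were called higher and none lower against vector, with 15 and 0 for K264R, 5 and 0 for K278R, and 0 for RASSF1A, against 21.0%, 21.1%, 16.0%, and 0% of all genes higher, and the median changes of the 25 probes were 0.23, 0.46, 0.11, and 0.18. AURKB, the kinase of the chromosomal passenger complex, rose by 1.16 ± 0.24 with MOAP-1 (limma adjusted p = 0.00377) and 1.28 ± 0.24 with K264R (adjusted p = 0.00159). The study listed AURKB from these same tumors, so its direction is not independent evidence. CCNA2, the cyclin of S phase and G2, rose by 0.72 ± 0.13 with MOAP-1 (adjusted p = 0.00136) and 0.98 ± 0.13 with K264R (adjusted p = 0.000171). MKI67, the proliferation marker Ki-67, rose by 1.45 ± 0.22 at 1 probe with MOAP-1 (adjusted p = 0.000583), while its other probes changed by 0.53 ± 0.19 and −0.14 ± 0.12 and were not called. Between K264R and K278R, 5 genes of this list were called higher in K264R (AURKA, BUB1, CCNA2, CCNB1, and CENPA) and none lower, against 0.949% of all genes called in either direction. Slide and construct cannot be told apart in that comparison.

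Of 13 genes of the E2F and RB1 families, 4 were called higher with MOAP-1 (E2F6, E2F7, RBL1, and TFDP1), against 21.0% of all genes, and E2F6 was also called lower at another probe. E2F1 changed by 0.08 ± 0.11 with MOAP-1, −0.01 ± 0.11 with K264R, and 0.18 ± 0.11 with K278R, and was not called.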
